A study of Mus musculus with 7 samples.

Results

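The genes described here carry glucose into the cell, break it down to pyruvate and lactate, steer pyruvate towards the mitochondria and open the pentose phosphate pathway. They are 33 genes listed by name for their place in these pathways. All 33 were found among the 25571 rows of the count table, and all 33 were among the 15822 genes that passed a filter on low counts and were tested. The RNA came from tumour-associated macrophages sorted by FACS on CD11b, the integrin chain encoded by Itgam, from dissociated T387 glioblastoma xenografts grown orthotopically in NSG mice. Such mice have no mature lymphocytes or NK cells, so the host immune cells of these tumours are myeloid, and T387 is 1 tumour line. In 4 samples the mice had received Pracinostat, a hydroxamate that inhibits histone deacetylases, by gavage. The dose was 30 mg/kg on 4 occasions per week over 3 weeks from day 7 after implantation, although another label gives 3 mg/kg for the drug as prepared. The other 3 samples came from mice given the drug-free solvent, of which DMSO is 10%. The samples are named biological replicates but tied to no animal, age or sex, so whether animals were pooled is not known and p-values measure the spread between these samples.

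Glycolysis converts glucose to pyruvate and yields ATP without oxygen. Hexokinases trap glucose as glucose 6-phosphate, phosphofructokinase is the main control point, and lactate dehydrogenase regenerates NAD by turning pyruvate into lactate, which leaves through monocarboxylate transporters. Pyruvate dehydrogenase feeds pyruvate into the tricarboxylic acid cycle and is switched off by its kinases, while glucose 6-phosphate dehydrogenase diverts sugar into the pentose phosphate pathway, the source of NADPH for the oxidative burst and for lipid synthesis. Macrophages stimulated through Toll-like receptors are known for raised glycolysis, and hypoxic tumour regions induce many of the same genes.

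The libraries held 10142753 to 16950597 counts, and the 33 genes took up 0.764 to 0.879% of them with DMSO and 0.671 to 0.892% with Pracinostat. Macrophage and microglia markers (Itgam, Csf1r, Cx3cr1 and 7 others, all 10 tested) summed to 8465 to 9947 CPM with DMSO and 9231 to 12886 CPM with Pracinostat, where CPM is the count rate with library sizes scaled by TMM. Pracinostat replicate 3 stood apart in 3 marker lists. It held the most macrophage marker RNA, the most proliferation marker RNA (1940 CPM, with 782 to 1302 CPM elsewhere) and the least monocyte marker RNA (68.9 CPM, with 194 to 588 CPM elsewhere). DMSO replicate 2 and Pracinostat replicate 1 were rich in collagen transcripts from the list of 8 fibroblast and mural cell markers. The 8 summed to 1121 CPM in the first and 784 CPM in the second, and to 41.4 to 104 CPM in the remaining 5. Most of that was Col1a1 (702 and 440 CPM), Col1a2 (239 and 178 CPM) and Col3a1 (113 and 75.7 CPM). Dcn (1.84 and 0.818 CPM) and Lum (0 and 0.477 CPM) were scarce in both. Rgs5 stood at 23.8 and 12.1 CPM, beside 22.9 CPM in DMSO replicate 1. Acta2 (20.9 and 47.5 CPM) and Pdgfrb (20.2 and 30.1 CPM) were higher in both than in the rest. Pracinostat replicate 1 also held the most oligodendrocyte marker RNA (1051 CPM, with 190 to 363 CPM elsewhere), and Pracinostat replicate 4 the least endothelial marker RNA (89.9 CPM, with 242 to 406 CPM elsewhere). All 5 monocyte markers had negative fold changes, 0 of them with an unadjusted p under 0.05, and sums of 247 to 588 CPM with DMSO and 68.9 to 359 CPM with Pracinostat. Of 9 neutrophil markers 6 were tested, all with positive fold changes and 0 with an unadjusted p under 0.05. The 9 summed to 5.93 to 158 CPM with DMSO and 1.19 to 178 CPM with Pracinostat, a wide spread within both groups. The part of these cell types in the results was not tested. Since the samples are bulk RNA, fewer cells of a type and less RNA per cell cannot be told apart.

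None of the 33 genes differed between Pracinostat and DMSO once all genes were accounted for. By edgeR's quasi-likelihood test with Benjamini-Hochberg adjustment over 15822 genes, 0 members had an adjusted p under 0.05, as did 0% of all genes, and every member's adjusted p was 1.00. DESeq2 also called 0 members, against 0.171% of the genes to which it gave an adjusted p, and limma-voom called 0. At an unadjusted p under 0.05 by edgeR, 1 member was higher with Pracinostat, the glucose transporter Slc2a6 (3.03% of the members, against 2.81% of all genes tested). By the same measure 1 was lower, the pyruvate dehydrogenase subunit Pdha1 (3.03%, against 1.37%). Of the 33 log2 fold changes, which are Pracinostat against DMSO, 15 were positive and 18 negative, with a median of -0.04, beside 0.02 over all genes tested. The groups did not overlap for 1 member on the higher side, Slc2a6 again (3.03%, against 3.51% of all genes), and for 2 on the lower side, Pdha1 and the lactate transporter Slc16a1 (6.06%, against 2.59%).

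These small counts moved with single libraries. Without Pracinostat replicate 1, 5 members had an unadjusted p under 0.05, 4 of them lower (background 1.87%), and 10 had groups that did not overlap, 8 of them lower (background 4.87%). Without DMSO replicate 3, 4 had an unadjusted p under 0.05, 2 in each direction (background 3.6% higher and 1.91% lower), and 8 did not overlap, 3 higher and 5 lower (background 8.07 and 7.27%). Without DMSO replicate 1, 7 did not overlap, 4 higher and 3 lower (background 8.19 and 5.96%). An alternative chosen after the data were seen left out both libraries rich in collagen transcripts. In it 6 members had an unadjusted p under 0.05, all lower (background 1.9%), namely Slc2a1, Aldoa, Gapdh, Eno1, Pdha1 and G6pdx. In that fit 14 of the 33 did not overlap, 11 of them lower (background 10.4%) and 3 higher (background 10.8%). With all 7 libraries, 2 of the 33 were lower without overlap (background 2.59%). By unadjusted p under 0.05, 1 was lower with all 7 (background 1.37%). The members' counts on the lower side and the background shares were thus both higher in the smaller fit. Still 0 members had an adjusted p under 0.05 in any of these fits.

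**Figure D1:**
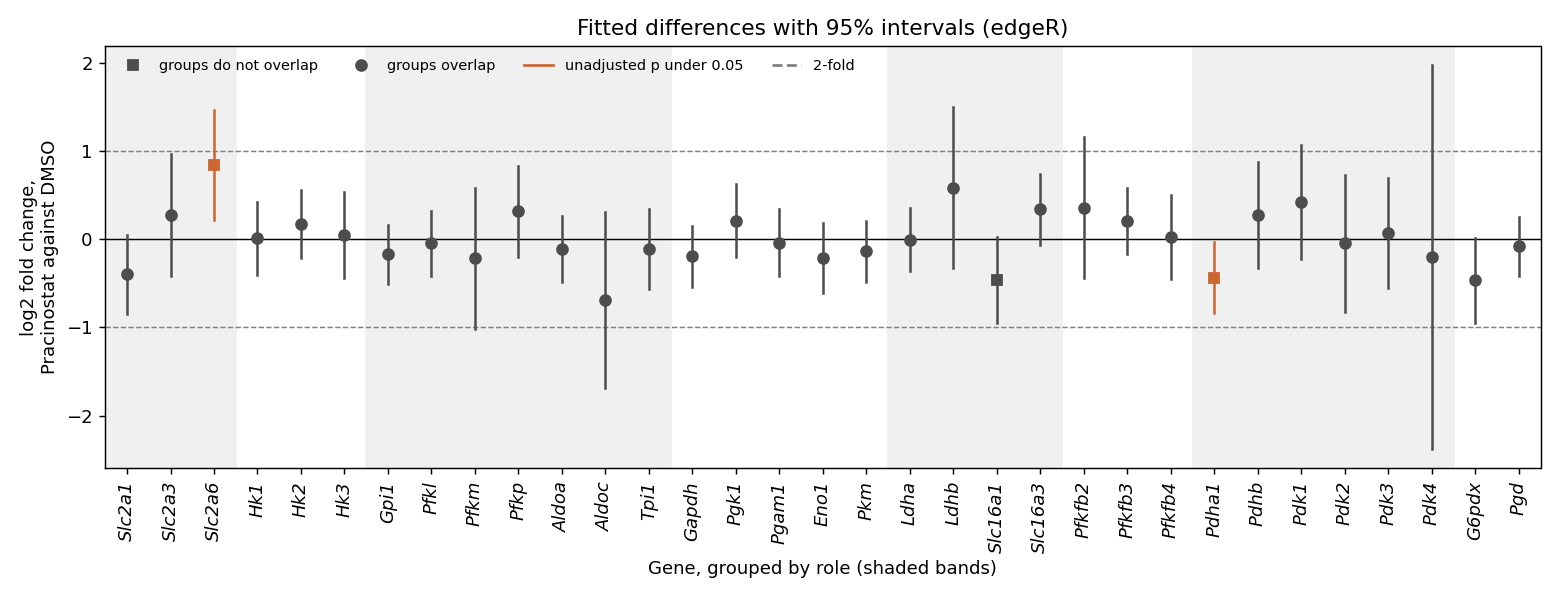
Log2 fold change of each of the 33 genes, Pracinostat (n = 4) against DMSO (n = 3), from edgeR, with 95% intervals as vertical lines. Squares mark the 3 genes whose groups did not overlap and orange marks the 2 with an unadjusted p under 0.05. Dashed lines mark a 2-fold change, and the intervals of 26 genes lay between them.

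The precision differed by gene. For 26 of the 33 members the 95% interval of the fold change lay within 2-fold in both directions, among them every enzyme of the lower part of glycolysis. The intervals of the other 7 reached 2-fold or more, namely Slc2a6, Pfkm, Aldoc, Ldhb, Pfkfb2, Pdk1 and Pdk4. Standard errors on the log2 scale ran from 0.16 for Gpi1 to 1.02 for Pdk4, whose level was the lowest of the set.

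The glucose transporters gave the largest positive value in the set. Slc2a6 encodes GLUT6, a transporter found on lysosomal membranes of macrophages. It stood at 38.7, 23.6 and 37.3 CPM in DMSO replicates 1 to 3 and at 50.4, 42.9, 94.8 and 49.4 CPM in Pracinostat replicates 1 to 4. All 4 Pracinostat libraries were above all 3 DMSO libraries, and replicate 3 was far above the other Pracinostat libraries. The log2 fold change was 0.84 ± 0.29 (SE), with a 95% interval of 0.21 to 1.47 and an edgeR adjusted p of 1.00. Leaving out Pracinostat replicate 3 gave 0.52, leaving out DMSO replicate 2 gave 0.64 and leaving out both collagen-rich libraries gave 0.72. In these 3 fits the unadjusted p of Slc2a6 was no longer under 0.05. Replicate 3 is also the library with the most macrophage and proliferation marker RNA and the least monocyte marker RNA, and their part in its Slc2a6 level was not tested.

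Slc2a1, the widely expressed GLUT1, had levels of 325.9, 227.5 and 269.2 CPM with DMSO and 259.4, 248.3, 179.9 and 143.5 CPM with Pracinostat. Pracinostat replicates 3 and 4 were below every DMSO library, while replicates 1 and 2 lay among them (-0.40 ± 0.21, 95% interval -0.84 to 0.04). Slc2a3, the high-affinity GLUT3, ranged from 20.3 to 29.5 CPM with DMSO and from 14.9 to 39.9 CPM with Pracinostat (0.27 ± 0.32). Levels of different genes can be compared only per length, here as CPM per kb of merged exon. On that scale Slc2a1 made up 79.7 ± 1.45% (SD, n = 3) of the 3 transporters with DMSO and 64.3 ± 11.8% (SD, n = 4) with Pracinostat. Slc2a6 made up 14.6 ± 1.85% (SD, n = 3) and 28.2 ± 9.53% (SD, n = 4), its share in replicate 3 being 40.4%.

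**Figure D2:**
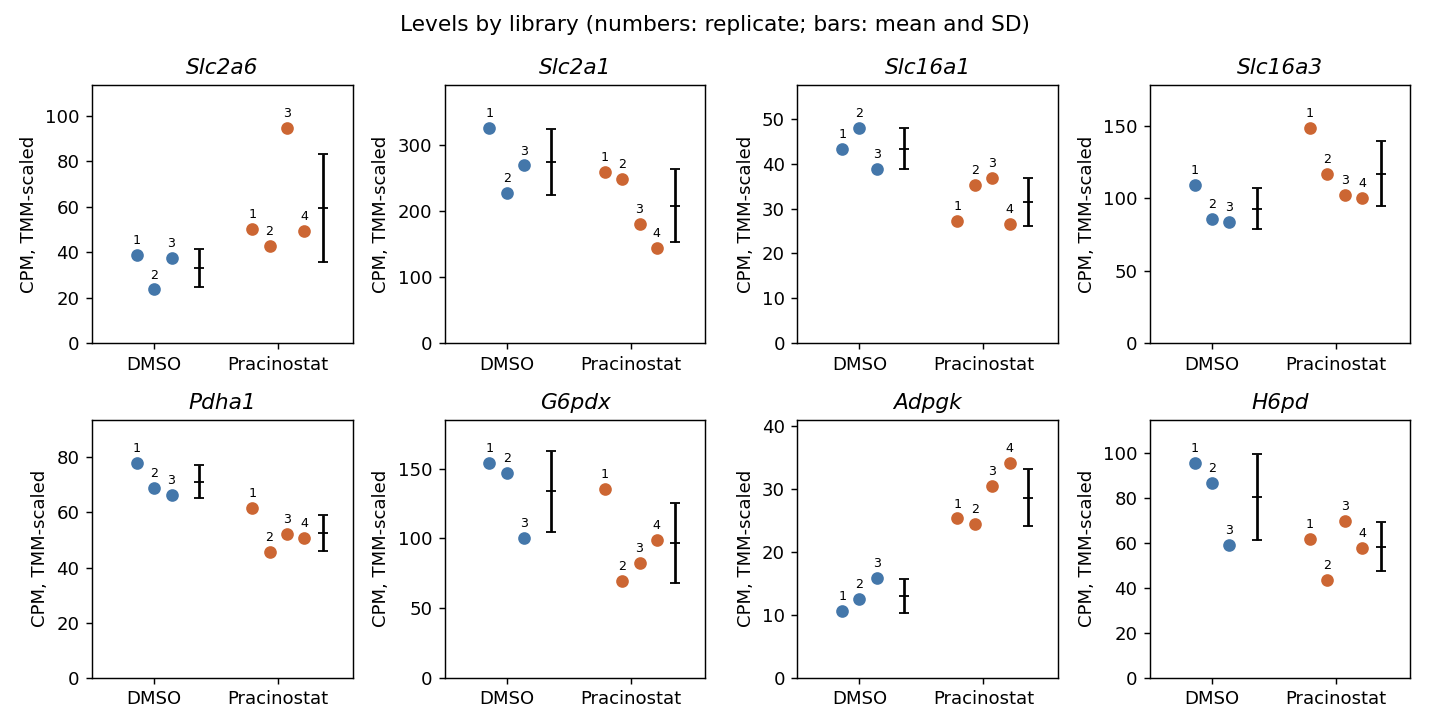
Level of 8 genes in each library in TMM-scaled CPM (y axis from 0), with replicate numbers beside the points and the mean ± SD of each group (DMSO n = 3, Pracinostat n = 4) as bars. For Slc2a6 and Adpgk the 4 Pracinostat points lie above the 3 DMSO points and for Slc16a1 and Pdha1 below them, while the groups of the other 4 genes overlapped.

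All 3 hexokinases, which phosphorylate glucose on entry, were detected. Hk2, the inducible isoform bound to mitochondria, was the main one per length, at 53 ± 8.05% (SD, n = 3) of the hexokinase signal per kb with DMSO and, with Pracinostat, 55.8 ± 4.25% (SD, n = 4). Hk2 ranged from 278.2 to 446.6 CPM with DMSO and from 327.8 to 431.8 CPM with Pracinostat (log2 fold change 0.17 ± 0.18). Hk1, the constitutive isoform, averaged 106.3 ± 21.2 CPM (SD, n = 3) in vehicle samples, and in treated ones 106.8 ± 20.2 CPM (SD, n = 4). Its log2 fold change of 0.01 ± 0.19 turned negative under 8 of the 17 alternatives. Among them were DESeq2 size factors (-0.005), upper quartile scaling (-0.003) and total counts with no further scaling (-0.02). The largest negative values were -0.14 without Pracinostat replicate 4, -0.13 with the replicate number as a block and -0.12 without DMSO replicate 3. Hk3, the isoform of myeloid cells, stood at 96.1, 112.7 and 109.2 CPM with DMSO and at 129.9, 120.3, 126.5 and 61.4 CPM with Pracinostat. Replicates 1 to 3 of Pracinostat were above every DMSO library and replicate 4 below every one, so that the fitted difference was 0.05 ± 0.23.

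The enzymes from glucose 6-phosphate to the triose phosphates had log2 fold changes from -0.69 to 0.31, 6 of 7 on the negative side. Gpi1, which isomerizes glucose 6-phosphate, averaged 424.5 ± 53.4 CPM (SD, n = 3) in the vehicle group, and 376.2 ± 48.7 CPM (SD, n = 4) after the drug (-0.17 ± 0.16). Among the phosphofructokinase subunits Pfkl held 81.1 ± 0.909% (SD, n = 3) of the signal per kb with DMSO and, with Pracinostat, 78.4 ± 4.66% (SD, n = 4). Its 3 DMSO libraries lay between 182.5 and 189.6 CPM, the tightest DMSO group of the set, while the Pracinostat libraries spread from 144.3 to 212.1 CPM (-0.05 ± 0.17). Pfkp, the platelet type subunit, was the 1 gene here with a positive value (0.31 ± 0.24), and Pfkm, the muscle type, was at -0.22 ± 0.37 from levels of 7.98 to 13.1 CPM. Muscle markers, 2 of 5 of which were tested, summed to 0.791 to 18.2 CPM over the 7 libraries, and their part in the Pfkm level was not tested.

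Aldoa, the main aldolase, stood at 946.7, 800.4 and 976.8 CPM with DMSO and at 1135, 719.7, 758.5 and 745.5 CPM with Pracinostat. Pracinostat replicate 1 was above every other library and the other 3 Pracinostat libraries below every DMSO library (-0.11 ± 0.18). Aldoc, the aldolase of brain and astrocytes, held 1.04 ± 0.206% (SD, n = 3) of aldolase signal per kb with DMSO and, with Pracinostat, 0.695 ± 0.323% (SD, n = 4). It ranged from 12.7 to 19.5 CPM with DMSO and from 2.91 to 14.5 CPM with Pracinostat (-0.69 ± 0.46, 95% interval -1.68 to 0.31), the lowest being Pracinostat replicate 3. Of 8 astrocyte markers 5 were tested and 2 had positive fold changes, and none of the 8 was at 0 in every library. They summed to 98 to 127.7 CPM with DMSO and 79.4 to 142.2 CPM with Pracinostat, with the highest sum in that same replicate 3. Most of that sum was Slc1a3 (91.8 CPM), which with Aldh1l1 (14.2 CPM) was highest in this library. Slc1a2 (4.03 CPM) was at its lowest there, and Gfap (27.3 CPM) was lower only in Pracinostat replicate 4 (17.3 CPM). The part of the astrocyte markers in the Aldoc level was not tested. Tpi1, the triose phosphate isomerase, was at -0.11 ± 0.21.

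Of the 3 highest levels in the set, 2 belonged to lower enzymes and the third to Aldoa. Pkm, pyruvate kinase, stood at 1667, 1586 and 2068 CPM with DMSO and at 1971, 1455, 1608 and 1401 CPM with Pracinostat, and Gapdh, glyceraldehyde phosphate dehydrogenase, at 996.4, 903.7 and 1155 CPM and at 1098, 791.7, 884.1 and 782.7 CPM. In both genes the groups overlapped, with Pracinostat replicate 1 near the top of the DMSO range and replicates 2 and 4 below it, as was replicate 3 for Gapdh. The log2 fold changes were -0.14 ± 0.16 for Pkm, with a 95% interval of -0.49 to 0.20, and -0.20 ± 0.16 for Gapdh, with an interval of -0.54 to 0.15. Without DMSO replicate 3 they were -0.02 for Pkm and -0.10 for Gapdh, and without Pracinostat replicate 1 -0.25 and -0.31. Without both collagen-rich libraries they were -0.32 and -0.38. Per length Pkm (682.3 CPM per kb with DMSO) and Gapdh (681.2) were level, and Aldoa (497.8) came next, followed by Eno1 (238.9), Ldha (215.8) and Pgam1 (197.3). Pgk1, phosphoglycerate kinase, was at 0.21 ± 0.19, Pgam1, phosphoglycerate mutase, at -0.04 ± 0.18 and Eno1, enolase, at -0.22 ± 0.18.

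Reads can be split between a gene and a near-identical copy, and 3 copies picked by name were looked at. Copies of the other members were not looked for. The copy Eno1b took 22.5 to 30.9% of the Eno1 and Eno1b counts, Pgam1-ps2 took 5.53 to 14% of its pair and Pgk1-rs7 took 0 to 7.86%. Eno1b, singled out after its values were seen, was at a log2 fold change of -0.50 ± 0.21. With the copies summed, a choice also made after the data were seen, the log2 fold changes were -0.29 for Eno1, -0.05 for Pgam1 and 0.21 for Pgk1, with 0 members called.

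**Figure D3:**
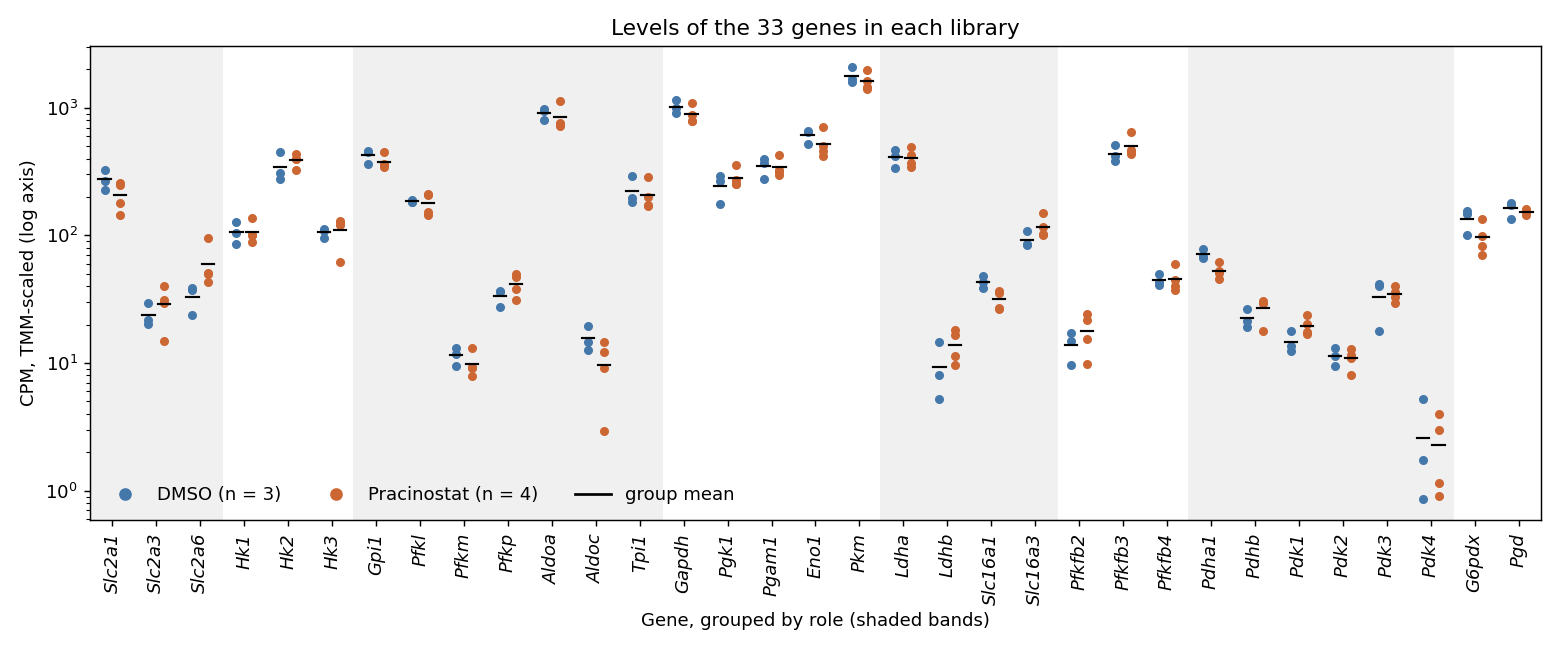
Level of each of the 33 genes in each library, in TMM-scaled CPM on a log axis. Points are libraries (DMSO n = 3, Pracinostat n = 4), horizontal lines are group means, and shaded bands separate the roles. Levels ran from 0.865 CPM for Pdk4 to 2068 CPM for Pkm.

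Ldha, the lactate dehydrogenase subunit that favours lactate production, had the fold change closest to 0 in the set. It stood at 418.4, 338.6 and 469.8 CPM with DMSO and at 488.8, 346.5, 424.8 and 368.5 CPM with Pracinostat, and the groups overlapped throughout. Its log2 fold change was -0.01 ± 0.17 with a 95% interval of -0.37 to 0.35. Ldhb, the other subunit, was scarce at 5.2 to 14.6 CPM with DMSO and 9.61 to 18.1 CPM with Pracinostat (0.58 ± 0.43, 95% interval -0.33 to 1.49). Its value was 1.07 without DMSO replicate 1, where its unadjusted p was under 0.05, and 0.29 without DMSO replicate 2.

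The lactate transporters had values on opposite sides of 0. Slc16a1, or MCT1, which carries lactate in both directions, stood at 43.3, 48.1 and 39 CPM with DMSO and at 27.2, 35.4, 37 and 26.7 CPM with Pracinostat. Every Pracinostat library was below every DMSO library, though replicate 3 was close to the lowest of them (-0.46 ± 0.23, 95% interval -0.95 to 0.03). Slc16a3, or MCT4, the transporter of lactate-exporting cells, stood at 108.9, 85.4 and 83.7 CPM with DMSO and at 148.5, 116.5, 102.4 and 100.3 CPM with Pracinostat. DMSO replicate 1 lay among the Pracinostat libraries (0.34 ± 0.19, 95% interval -0.07 to 0.74). Per length Slc16a3 made up 67.8 ± 3.79% (SD, n = 3) of the pair with DMSO and 78.3 ± 4.66% (SD, n = 4) with Pracinostat.

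Ratios between paired genes do not depend on how a library is scaled, apart from a pseudocount of 1 CPM, and 6 were compared. The test was an exact permutation of the 7 libraries, two-sided, in which 35 splits exist and p cannot go below 0.0286. The log2 ratio of Slc16a3 to Slc16a1 was 1.31, 0.82 and 1.08 with DMSO and 2.41, 1.69, 1.45 and 1.87 with Pracinostat. The 4 treated values all exceeded the 3 vehicle values, with a difference of 0.78 (exact permutation p = 0.0571, adjusted p = 0.343 over the 6 ratios). The ratio of G6pdx to Gpi1, the enzymes that compete for glucose 6-phosphate, differed by -0.31 (exact permutation p = 0.114, adjusted p = 0.343). The other 4 ratios had adjusted p-values of 0.377 to 0.629. They differed by -0.60 for Ldha to Ldhb, -0.63 for Slc2a1 to Slc2a3, 0.36 for Pfkp to Pfkl and 0.18 for Hk2 to Hk1. The Slc2a1 to Slc2a3 ratio was tight with DMSO (SD 0.0916, n = 3) and broad with Pracinostat (SD 0.846, n = 4).

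**Figure D4:**
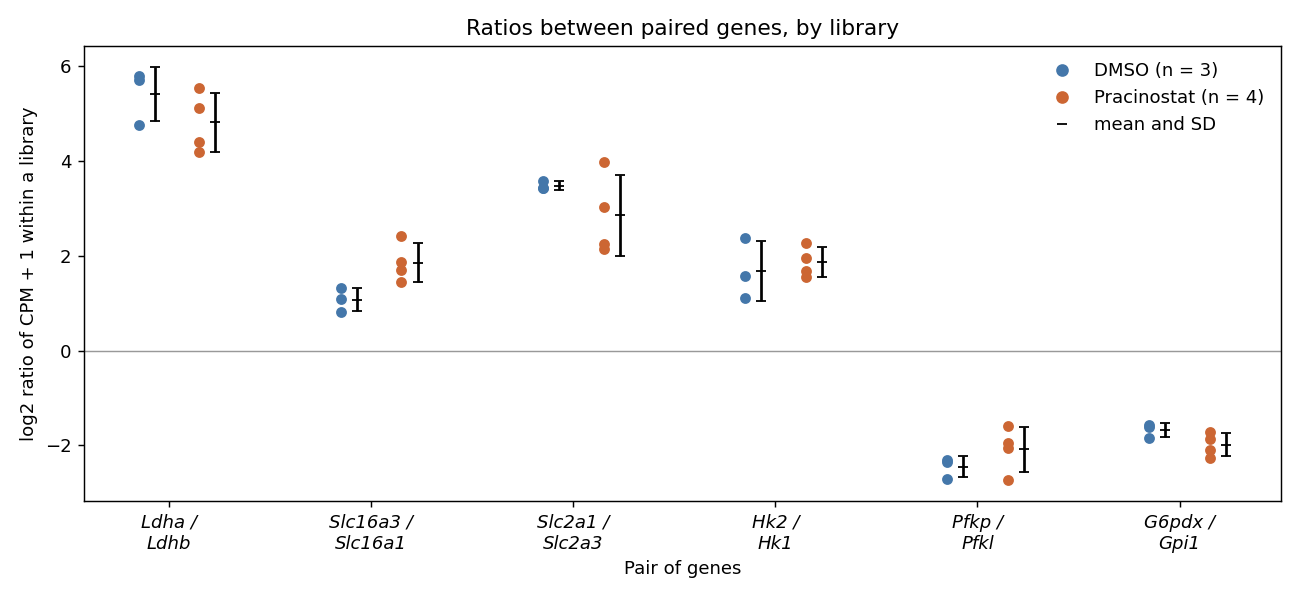
Log2 ratio of CPM + 1 between paired genes in each library, with mean ± SD of each group (DMSO n = 3, Pracinostat n = 4) as bars. The Slc16a3 to Slc16a1 ratio is the pair whose groups did not overlap (0.82 to 1.31 against 1.45 to 2.41).

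The bifunctional enzymes set the level of fructose 2,6-bisphosphate, the activator of phosphofructokinase. Pfkfb3, the isoform with the strongest kinase activity, held 83.4 ± 3.31% (SD, n = 3) of the signal per kb of the 3 genes with DMSO and, with Pracinostat, 84.6 ± 0.573% (SD, n = 4). It stood at 383, 416.7 and 511.8 CPM with DMSO and at 454.2, 467.5, 436.7 and 650.1 CPM with Pracinostat, where replicate 4 was above every other library (0.20 ± 0.17). Replicate 4 also held the highest Pfkfb2 (24.3 CPM, others 9.6 to 21.6) and Pfkfb4 (59.4 CPM, others 37.2 to 49.9). The fold changes of these were 0.36 ± 0.37 for Pfkfb2 and 0.02 ± 0.22 for Pfkfb4.

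Pyruvate dehydrogenase is built from the E1 subunits Pdha1 and Pdhb, which had values of opposite sign. Pdha1, the catalytic alpha subunit that the kinases phosphorylate, stood at 78.1, 69 and 66.5 CPM with DMSO and at 61.6, 45.8, 52.3 and 50.9 CPM with Pracinostat. All 4 Pracinostat libraries were below all 3 DMSO libraries (-0.44 ± 0.19, 95% interval -0.83 to -0.04, edgeR adjusted p = 1.00). The unadjusted p was no longer under 0.05 without DMSO replicate 1 (-0.36), without Pracinostat replicate 2 (-0.38) or with no filter on low counts. Pdhb, the beta subunit, stood at 21.2, 26.6 and 19.3 CPM with DMSO and at 17.7, 29.8, 30.9 and 29.7 CPM with Pracinostat. Pracinostat replicates 2 to 4 were above every DMSO library and replicate 1 below every one (0.27 ± 0.28).

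The kinases that inhibit the complex were led per length by Pdk3, with 62.6 ± 12.8% (SD, n = 3) of the kinase signal with DMSO and 63.9 ± 0.972% (SD, n = 4) with Pracinostat. Pdk3 was at 0.07 ± 0.29, and DMSO replicate 2 (17.7 CPM) was below the other libraries (29.5 to 41.6 CPM). Pdk1, a known hypoxia target, ranged from 12.5 to 17.8 CPM with DMSO and from 16.8 to 23.9 CPM with Pracinostat (0.42 ± 0.30, 95% interval -0.22 to 1.07). Pdk2 was at -0.05 ± 0.36. Pdk4, a gene of fasting and fatty acid use, was barely expressed, at 0.865 to 5.2 CPM over the 7 libraries, and its fold change (-0.20 ± 1.02) is not measured well enough to give a direction.

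At the entry to the pentose phosphate pathway both members had negative values. G6pdx, glucose 6-phosphate dehydrogenase, stood at 154.2, 146.6 and 100.5 CPM with DMSO and at 135.4, 69.7, 82.3 and 99.1 CPM with Pracinostat. DMSO replicate 3 and Pracinostat replicate 1 lay in the other group's range, and the rest were apart (-0.47 ± 0.23, 95% interval -0.96 to 0.02). With 1 library left out the G6pdx value ran from -0.67 without Pracinostat replicate 1, where the unadjusted p was under 0.05, to -0.34 without Pracinostat replicate 2. With total counts and no further scaling, G6pdx and Slc2a1 were among the 4 members with an unadjusted edgeR p under 0.05 (1 higher and 3 lower, background 2.61 and 1.72%). Pgd, which catalyses the second NADPH-yielding step, ranged from 134.9 to 178.8 CPM with DMSO and from 143.6 to 160.7 CPM with Pracinostat (-0.08 ± 0.16).

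A block of 8 enzymes, chosen for their place from aldolase to lactate, deviated in the same direction in most libraries. For Aldoa, Tpi1, Gapdh, Pgk1, Pgam1, Eno1, Pkm and Ldha, the median deviation from each gene's mean on the log2(CPM + 1) scale was 0.07, -0.15 and 0.23 in DMSO replicates 1 to 3. It was 0.35, -0.23, -0.07 and -0.22 in Pracinostat replicates 1 to 4. All 8 were above their mean in DMSO replicate 3 and Pracinostat replicate 1, and all 8 below it in DMSO replicate 2 and Pracinostat replicates 2 and 4. The collagen-rich libraries were on opposite sides, DMSO replicate 2 below the mean and Pracinostat replicate 1 above it. What part the cells that carry collagen transcripts had in these levels was not tested. Abundant members outside the block had other patterns, since Gpi1 was at 451.5 CPM in DMSO replicate 2 and 363 CPM in DMSO replicate 3, and Pfkfb3 was highest in Pracinostat replicate 4. Over all 33 genes, Pracinostat replicate 1 held the highest level of 8 and DMSO replicate 2 the lowest of 9.

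**Figure D5:**
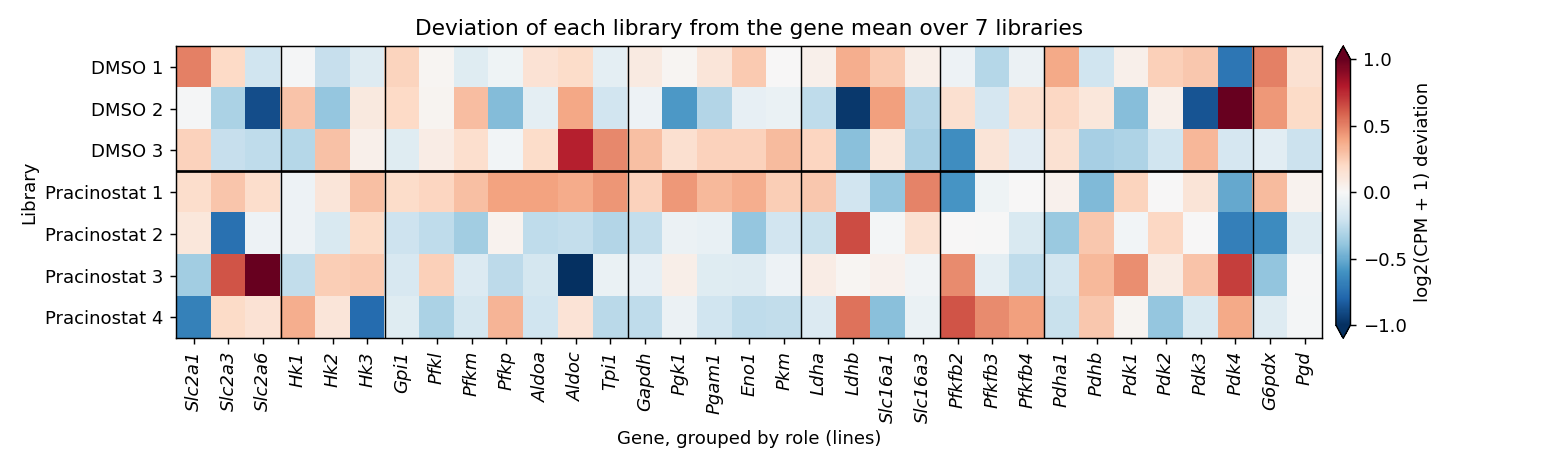
Deviation of each library from the gene's mean over the 7 libraries, in log2(CPM + 1), for the 33 genes grouped by role. Red is above and blue below the mean, and the colours end at 1 in both directions. The block from Aldoa to Ldha is mostly red in DMSO replicate 3 and Pracinostat replicate 1 and mostly blue in Pracinostat replicates 2 and 4.

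Of 55 further genes of these pathways, listed beside the members, 50 were in the table and 47 were tested. By edgeR 0 had an adjusted p under 0.05, 3 had an unadjusted p under 0.05 on the higher side (6.38%, against 2.81% of all genes) and 1 on the lower side (2.13%, against 1.37%). Of the fold changes 25 were positive and 22 negative, with a median of 0.03. The gene with the smallest p was Adpgk, the ADP-dependent glucokinase, which phosphorylates glucose with ADP in place of ATP. It stood at 10.6, 12.5 and 15.8 CPM with DMSO and at 25.3, 24.4, 30.4 and 34.1 CPM with Pracinostat, with no overlap between the groups. The log2 fold change was 1.14 ± 0.29 (95% interval 0.52 to 1.75, edgeR adjusted p = 0.924, DESeq2 adjusted p = 0.115), and it ran from 1.01 to 1.31 when 1 library was left out.

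The other 2 on the higher side were Mlxipl, the glucose-responsive transcription factor ChREBP (0.72 ± 0.32, 95% interval 0.04 to 1.41), and Pfkfb1. Pfkfb1, the liver isoform of the bifunctional enzyme, is close to the limit of detection, at 0.393, 0.08 and 0 CPM with DMSO and 0.545, 1.83, 3.97 and 2.61 CPM with Pracinostat. Tigar, a fructose bisphosphatase, was named after its values were seen. Its Pracinostat libraries (5.91 to 12.2 CPM) all lay above its DMSO libraries (3.22 to 5.6 CPM), as was so for Adpgk and Pfkfb1. These 3 genes were 6.38% of the other pathway genes tested, against 3.51% of all genes. On the lower side 0 had groups that did not overlap, against 2.59% of all genes. By unadjusted p the 1 gene on the lower side was H6pd, the hexose 6-phosphate dehydrogenase of the endoplasmic reticulum (-0.47 ± 0.22). The next smallest p-values among negative values, both above 0.05, were those of the glycogen phosphorylase Pygl (-0.47 ± 0.26) and the transaldolase Taldo1 (-0.34 ± 0.24). Without DMSO replicate 1 Pygl was at -0.22 and Taldo1 at -0.06. Without DMSO replicate 3 Pygl was at -0.74, and without Pracinostat replicate 1 Taldo1 was at -0.57. The groups overlapped in H6pd, Pygl, Taldo1 and Mlxipl, and the unadjusted p was under 0.05 in 11 of 17 alternatives for Mlxipl, 8 for H6pd, 4 for Pygl and 2 for Taldo1. It was under 0.05 in all 17 for Adpgk, whose edgeR adjusted p was 0.924 in the fit reported. For Pfkfb1 it was so in 8 of the 12 alternatives that tested it.

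Promoter sequences are shown for the 3 members whose groups did not overlap and, beside them, for Ldha, whose level stayed near 0 difference and whose promoter is a textbook target of hypoxia-inducible factor. They run from 250 bases before to 50 after the start, come from RefSeq on GRCm38.p6 and are written 5′ to 3′ on the gene's strand. Capitals mark ACGTG, the core bound by hypoxia-inducible factors, on either strand. Where it is read on both strands it forms CACGTG, the E-box.
Slc2a6, chr2:27027949-27028248, minus strand: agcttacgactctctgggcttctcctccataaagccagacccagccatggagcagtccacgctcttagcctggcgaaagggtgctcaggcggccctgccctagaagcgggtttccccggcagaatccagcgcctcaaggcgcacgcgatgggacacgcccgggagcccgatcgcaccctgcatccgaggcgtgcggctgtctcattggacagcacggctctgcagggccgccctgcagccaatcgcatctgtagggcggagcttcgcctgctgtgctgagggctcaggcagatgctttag
Slc16a1, chr3:104638414-104638713, plus strand: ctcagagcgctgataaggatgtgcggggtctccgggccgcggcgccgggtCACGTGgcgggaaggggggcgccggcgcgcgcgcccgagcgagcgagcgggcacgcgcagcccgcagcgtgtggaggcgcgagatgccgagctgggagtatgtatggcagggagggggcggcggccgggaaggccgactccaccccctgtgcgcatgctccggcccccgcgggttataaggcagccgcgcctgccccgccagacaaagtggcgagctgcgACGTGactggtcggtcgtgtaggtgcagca
Pdha1, chrX:160138381-160138680, minus strand: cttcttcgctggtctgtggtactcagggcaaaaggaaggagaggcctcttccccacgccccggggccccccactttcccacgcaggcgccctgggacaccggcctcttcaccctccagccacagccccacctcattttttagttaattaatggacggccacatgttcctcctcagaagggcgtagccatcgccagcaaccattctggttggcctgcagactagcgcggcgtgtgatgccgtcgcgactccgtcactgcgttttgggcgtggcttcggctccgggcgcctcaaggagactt
Ldha, chr7:46845554-46845853, plus strand: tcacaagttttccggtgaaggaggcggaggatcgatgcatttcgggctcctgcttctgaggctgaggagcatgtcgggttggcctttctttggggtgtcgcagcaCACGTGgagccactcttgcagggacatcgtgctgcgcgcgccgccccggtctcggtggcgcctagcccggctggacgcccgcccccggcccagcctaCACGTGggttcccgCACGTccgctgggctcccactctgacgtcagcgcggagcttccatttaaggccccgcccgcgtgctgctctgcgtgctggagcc

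The windows of Slc2a6 and Pdha1 hold no ACGTG. That of Slc16a1 holds 3 matches, with an E-box starting at -200 and a match at 21 from the start. The Ldha window shown holds 5, with E-boxes starting at -145 and -48. A second Ldha window, at chr7:46846832-46847131 and not shown, holds 0. In all, 32 of the 33 members matched the table with 49 windows, of which 24 (49%) hold ACGTG on either strand, against 19.6% of all 32851 windows of the same length. CACGTG, which is part of that count, is in 12.2% of the members' windows and 7.15% of all. The members' windows also hold more G and C, with a median of 61% against 52.7%. Windows of the same gene can overlap and share a match, as in Aldoa, so they are not independent. By gene, 20 of the 32 hold ACGTG in at least 1 window, and the share of all genes that do was not computed. A match is a string in the reference and not a site shown to be bound.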

How the data were processed

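The deposited values are estimated counts per gene symbol, stored by the authors as whole numbers and not normalized. The submitters' processing notes list RSEM, STAR, DESeq2, Trim Galore, MultiQC and FastQC without versions or roles, and the build GRCm39. For annotation and strand setting the sources used here state nothing. Libraries were made from 1 ng of total RNA with a stranded kit, per the labels' protocols, and held 10142753 to 16950597 counts.

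Groups were compared with edgeR 4.0.16 (R 4.3.3) on all 7 libraries: TMM scaling, a low-count filter (filterByExpr, minimum 10), robust quasi-likelihood fits with two-sided tests, adjusted by Benjamini-Hochberg over 15822 genes at 0.05. Log2 fold changes are given ± SE. DESeq2 1.42.0, limma 3.58.1 (voom), other scalings and filters, left-out libraries and the replicate number as a block were alternatives. The script was tested on simulated counts. Length-scaled levels use merged exons of GENCODE M21 (GRCm38), since RSEM's lengths were not used here. Members, lists and tests were chosen with earlier results of these data known. All 33 members are reported. Those with an unadjusted p under 0.05, no overlap, a Pracinostat library far from the others or the 3 highest levels are given in every library, and other pathway genes were named for the 3 smallest p in each direction. No 2 libraries were duplicates by a chi-square test of their counts.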

Additional observations from a re-analysis of the deposited data

Results flagged for a closer look

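Among the 4 Pracinostat libraries, 45 values were screened, and in 5 the library at 1 end lay farther from the nearest other than Dixon's 95% limit allows. Chance flags about 1 in 20 such groups, and the 3 DMSO libraries are too few to screen. Pracinostat replicate 3 held 94.8 CPM of Slc2a6, where the other treated libraries held 42.9 to 50.4 CPM. Pracinostat replicate 4 held 61.4 CPM of Hk3, where the others held 120.3 to 129.9 CPM, and 650.1 CPM of Pfkfb3, where the others held 436.7 to 467.5 CPM. In Pracinostat replicate 1, Aldoa was at 1135 CPM, against 719.7 to 758.5 CPM, and Pdhb at 17.7 CPM, against 29.7 to 30.9 CPM.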

How the results depend on the processing

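Over 17 alternatives, 0 members reached an adjusted p under 0.05, and 22 of the 33 kept their direction in all of them. The other 11 turned in 41 of 561 fits, and their reported log2 fold changes were at most 0.21 in size. The cause of these turns was not tested. Over all genes, 63 were called with no filter on low counts and 27 by DESeq2, against 0, and 0 to 3 when 1 library was left out (3 without DMSO replicate 3). Members with an unadjusted p under 0.05 numbered 2 in the fit reported and 4 with total counts (background 2.61% higher and 1.72% lower). They numbered 6 without both libraries rich in Col1a1 (chosen after the data were seen, background 2.66 and 1.9%). With 1 library left out they numbered 2 to 5, the 5 without Pracinostat replicate 1 (background 2.38 and 1.87%). Members without overlap numbered 3 (background 3.51 and 2.59%) and 14 without both Col1a1-rich libraries (10.8 and 10.4%). With 1 left out they ran from 3 without Pracinostat replicate 2 (4.99 and 4.25%) to 10 without Pracinostat replicate 1 (5.81 and 4.87%). The log2 fold change of Hk1 was -0.0050 with DESeq2 size factors, -0.0027 with upper quartile scaling, -0.017 with total counts and -0.0051 with DESeq2, and that of Pfkfb4 was -0.017 with limma-voom. Without both Col1a1-rich libraries Pgk1 was at -0.10, Pdk3 at -0.24, Pdk4 at 1.01 and the Hk2 to Hk1 ratio at -0.13.

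With 1 library left out, log2 fold changes ran from -0.14 to 0.16 for Hk1, -0.040 to 0.23 for Hk3, -0.14 to 0.027 for Pfkl, -0.30 to 0.13 for Tpi1 and -0.18 to 0.066 for Pgam1. They ran from -0.13 to 0.10 for Ldha, -0.15 to 0.11 for Pfkfb4, -0.16 to 0.072 for Pdk2, -0.23 to 0.27 for Pdk3 and -0.62 to 0.79 for Pdk4. The Hk2 to Hk1 ratio ran from -0.10 to 0.53.

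Replicate numbers 1 to 3 occur in both groups. Deviations of same-numbered libraries correlated at 0.0666, 0.0322 and 0.146. Among replicates 1 to 3, those of other numbers correlated at -0.111 to 0.0266, below every same-numbered value. Each of these 6 libraries except DMSO replicate 2 correlated best with its own number. DMSO replicate 2 correlated best with the unmatched Pracinostat replicate 4 (0.0754). The samples are tied to no animal, so whether the numbers pair them is not known, and the fit reported does not use them. A fit blocked on these numbers leaves out the unmatched Pracinostat replicate 4. In it 4 genes were called over all genes and 4 members had an unadjusted p under 0.05, 2 in each direction (background 2.49 and 2.02%). In that block fit the log2 fold change was -0.13 for Hk1, 0.011 for Pfkl, 0.0083 for Pgam1, 0.022 for Ldha, -0.15 for Pfkfb4 and 0.061 for Pdk2.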
